A study of Homo sapiens with 11 samples.

Results

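The glucocorticoid receptor (GR) sites in 2 windows that span RPTOR and PRKCE, long human signalling genes, were described together with the SUMO-2/3 sites around them. The members are all deposited sites of 5 lists that overlap hg19 chr17:78518000-78941000, the RPTOR window, or chr2:45878000-46416000, the PRKCE window. Of the 51024 sites in the 5 lists, 99 are members, with 39 in the RPTOR window and 60 in the PRKCE window. The windows were chosen because each holds 1 of the 10 strongest GR sites shared by both transgenic lines. They were selected on GR fold enrichment, as the mean rank over the 4 GR libraries, so GR fold enrichment at those sites, and GR presence there in both lines, are given as description with no test. The RPTOR site held place 3 with a mean rank of 6.5 and the PRKCE site held place 4, jointly, with a mean rank of 9.625. At the edge of the rule, the site at place 10 had a mean rank of 25.75 and the site at place 11 had 29.25. Ranked by tags instead of fold, the mean ranks of the RPTOR and PRKCE sites were 567 and 114.

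The sites come from chromatin immunoprecipitation with sequencing (ChIP-seq) in HEK293 Flp-In cells, a human embryonic kidney line with a prepared recombination site into which a transgene is placed. One isogenic line expressed wild-type GR, another expressed GR3KR (the 3KR line), a SUMOylation-defective receptor, and the FRT control line received no GR transgene. All lines were kept for 72 h in medium stripped of steroids and then given 100 nM dexamethasone, a synthetic glucocorticoid, for 1 h, so every list describes hormone-treated cells and none an untreated state. Each transgenic line gave 2 libraries with a GR antibody and 2 with a SUMO-2/3 antibody, and the control line gave 1 GR library. Each line is a single cell population, and no SUMO-2/3 list of the control line was used here. With 2 libraries against 2, the smallest two-sided exact permutation p is 0.333, so differences between the lines in tags are described without a test. The labels call the libraries biological duplicates and do not say how separate the cultures were. The control-line library held 208776 tags in its listed sites, far fewer than the 1127839 to 4696781 of the other libraries, and total sequencing depth is unknown.

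GR is a nuclear receptor that enters the nucleus when it binds a glucocorticoid and then occupies glucocorticoid response elements, most of which lie outside promoters. SUMO-2 and SUMO-3 are small ubiquitin-like proteins that become attached to GR and to many other chromatin proteins, so a SUMO-2/3 ChIP signal can come from any modified protein at a site. RPTOR encodes raptor, the scaffold through which the kinase complex mTORC1 recruits its substrates in the control of cell growth by nutrients. PRKCE encodes protein kinase C epsilon, a diacylglycerol-activated, calcium-independent member of the protein kinase C family. In RefSeq (GRCh38.p14 table, used for names and lengths only), RPTOR is gene 57521 with a length of 421531 bp and PRKCE is gene 5581 with a length of 536712 bp, both on the plus strand, and the windows are 423001 and 538001 bp long. Exons, introns and promoters in hg19 were not analysed here, nor were other genes of the mTOR and protein kinase C pathways.

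Sites of the 5 lists that share at least 1 bp were merged into loci, numbered along each window. The RPTOR window held 18 loci and the PRKCE window held 25. In RPTOR, 12 loci carried GR and 13 carried SUMO-2/3, with 7 carrying both. In PRKCE, 24 loci carried GR and 10 carried SUMO-2/3, with 9 carrying both. The PRKCE loci were thus nearly all GR loci, whereas RPTOR held 6 SUMO-2/3 loci with no GR site in any line against 1 in PRKCE, locus 7, with 168 and 163 tags in the wild-type line alone. Locus 10, counted among the 6, is a narrow site between loci 9 and 11, described below. By list, RPTOR and PRKCE held 8 and 17 wild-type GR sites, 11 and 23 3KR GR sites, 0 and 3 control-line GR sites, 10 and 10 wild-type SUMO-2/3 sites, and 10 and 7 3KR SUMO-2/3 sites.

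Both windows were denser in sites than the lists as a whole. Wild-type GR sites numbered 18.9 per Mb in the RPTOR window and 31.6 per Mb in the PRKCE window, against 3.88 per Mb over the list, 6.33 on chromosome 17 and 3.13 on chromosome 2. For GR in the 3KR line the densities were 26.0 and 42.8 per Mb, against 6.48 over the list, 9.12 on chromosome 17 and 7.03 on chromosome 2. For SUMO-2/3 in the wild-type line they were 23.6 and 18.6 per Mb, against 4.14, 10.6 and 2.43. In the 3KR line SUMO-2/3 sites numbered 23.6 and 13.01 per Mb, against 2.67, 5.78 and 2.62. For RPTOR the excess over its own chromosome was thus smaller than that over the list in all 4 of these lists. Since the windows were chosen for a GR site, these densities are a description.

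**Figure D1:**
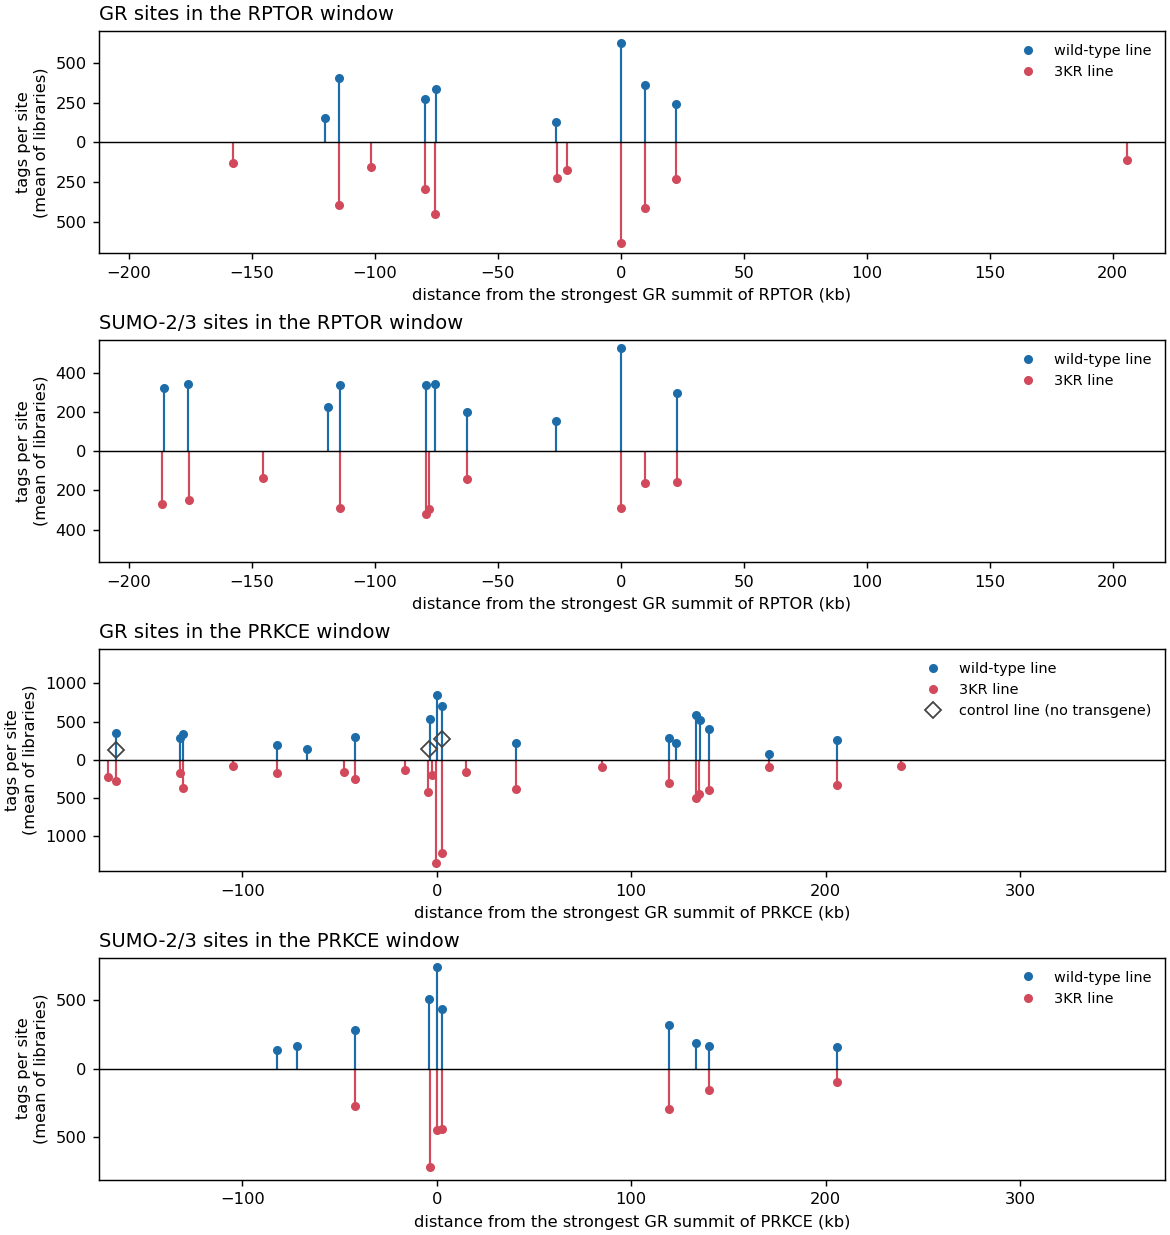
Mean deposited tags of the libraries at each GR and SUMO-2/3 site (vertical axis, tags per site, wild-type line upward and 3KR line downward) against distance in kb from the strongest GR summit of each window; open diamonds mark control-line GR sites. The strongest GR site of each window stands among weaker sites, 17 of the 18 RPTOR loci lie in the first part of the window, and the 3 control-line sites all lie in the PRKCE window.

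The loci were spread differently along the windows. In RPTOR, loci 1 to 17 lay between 21.2 and 229.9 kb from the window's start, and then 181467 bp without any site preceded locus 18, a GR site of the 3KR line alone at 412.6 kb. In PRKCE, the loci ran from the window's first bases to 407.6 kb, and the largest gap between loci was 42833 bp. That gap leaves out the end of the window: no site was listed from the end of locus 25, at 46285964, to the window's end at 46416000. The strongest GR loci lay well inside the windows, 207.0 kb (RPTOR locus 15) and 168.5 kb (PRKCE locus 13) from the window starts, by the middle of each locus.

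RPTOR locus 15 was the strongest GR site of its window in all 4 GR libraries. Its wild-type GR site spanned chr17:78724389-78725815 and its 3KR GR site chr17:78724266-78725813, and the summits placed exactly in 2 libraries, 1 of each line, were at 78724940 and 78724942. The wild-type libraries had 459 and 789 GR tags and the 3KR libraries had 628 and 645. The 3KR values lay between the wild-type values, so the lines overlapped. Fold enrichment over the peak caller's background was 77.53 and 45.06 in the wild-type line and 73.43 and 57.02 in the 3KR line. The control-line list had no GR site at locus 15, nor anywhere else in the RPTOR window.

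SUMO-2/3 was also highest in the RPTOR window at locus 15 in the wild-type line. The wild-type libraries had 404 and 644 SUMO-2/3 tags, with fold enrichments of 35.51 and 40.65, and the 3KR libraries had 224 and 354 tags, with 17.05 and 24.12. Both wild-type values were above both 3KR values, which was the case at 1 of the 14 SUMO-2/3 sites shared by the lines in the windows and at 21.2% of all 5780 shared SUMO-2/3 sites. Within its own list, the site stood in the top 2.18% and 2.53% by fold in the wild-type libraries and in the top 14.6% and 16.3% in the 3KR libraries.

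Both lines shared 6 other GR loci in RPTOR. RPTOR locus 11 was the next by mean fold rank (place 2143 of 10006 shared sites). It had 234 and 439 GR tags in the wild-type line and 357 and 551 in the 3KR line. A SUMO-2/3 site was listed there in the wild-type line only (223 and 466 tags). A SUMO-2/3 peak of the second 3KR library, listed at locus 10 with 360 tags, may have its summit in locus 11, as described below. RPTOR locus 7, place 3187, had 187 and 622 GR tags in the wild-type line and 335 and 456 in the 3KR line. It also carried SUMO-2/3 in both lines, with 238 and 439 tags in the wild-type line and 209 and 370 in the 3KR line. Place by fold is what chose the window. In deposited tags, locus 15 was above loci 7 and 11 in each of the 4 GR libraries. Across libraries, which are not normalized, the highest values of loci 7 and 11 lay within the range of locus 15.

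RPTOR loci 13, 16 and 17, on either side of locus 15, were also shared. RPTOR locus 13 had 61 and 196 GR tags in the wild-type line against 212 and 231 in the 3KR line, and it was the only shared RPTOR GR site at which both wild-type libraries were below both 3KR libraries (background 32.9% of all shared GR sites). Only the wild-type list had a SUMO-2/3 site there, with 95 and 211 tags. RPTOR locus 16 had 180 and 546 wild-type and 489 and 335 3KR GR tags, and SUMO-2/3 in the 3KR line alone, with 103 and 224 tags. RPTOR locus 17 had 97 and 381 wild-type and 212 and 249 3KR GR tags, and SUMO-2/3 tags of 206 and 383 in the wild-type line and 97 and 221 in the 3KR line. At loci 13, 15, 16 and 17 the deposited GR tags of the wild-type duplicates lay further apart than the means of the lines. These tags are not normalized, and the wild-type GR libraries also differed over the whole list, with 1868745 and 3489624 tags.

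Of the 6 SUMO-2/3 loci of RPTOR with no GR site, loci 1, 2 and 12 were present in both lines. Locus 1 had 216 and 423 tags in the wild-type line and 145 and 389 in the 3KR line. Locus 2 had 247 and 438 tags in the wild-type line and 180 and 321 in the 3KR line. Locus 12 had 144 and 258 tags in the wild-type line and 124 and 158 in the 3KR line. The lines overlapped at each of these 3 loci. Of the others, RPTOR locus 6 belonged to the wild-type list alone, with 282 and 168 tags, 274 bp from the wild-type GR site of locus 5. The first-library tags at locus 6 belong to a peak of 3798 bp around a site of 1030 bp. Loci 4 and 10 were listed in the 3KR line alone, with 111 and 159 and with 233 and 360 tags. Locus 10 is only 222 bp wide, and its first-library tags are those of 1 peak that also covers locus 9. The summit of that peak, at 78646193, lies in locus 9. The second-library tags of locus 10 belong to another peak, of 3155 bp. If a site is the stretch shared by the peaks of both libraries, the summit of this other peak is at 78649689, in locus 11. On that reading, locus 10 holds the summit of neither library.

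A GR site in 1 transgenic line only was seen at 5 RPTOR loci. The 3KR line alone had loci 3 (151 and 103 tags), 8 (146 and 168), 14 (208 and 136) and 18 (117 and 101). The wild-type line alone had locus 5 (71 and 233 tags). All were weak: the highest fold enrichment among them was 18.63, at locus 18 in the first 3KR library, and none carried SUMO-2/3. Over the lists, SUMO-2/3 lay at 5.11% of the 8854 GR sites of the 3KR line with no wild-type site and at 15.3% of the 1253 of the wild-type line with no 3KR site.

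In PRKCE, the strongest GR site was the middle one of 3 neighbouring GR loci in chr2:46041557-46050295. PRKCE locus 13 spanned chr2:46045894-46047883 in the wild-type line and chr2:46045044-46047884 in the 3KR line, with exactly placed GR summits at 46046607 and 46046613. GR tags were 646 and 1058 in the wild-type line and 1002 and 1680 in the 3KR line. The value of 1680 belongs to a single peak of 5666 bp in the second 3KR library, which also covers PRKCE locus 14. It is listed at both sites, so its tags cannot be divided between them. The summit of that peak lies between 46046322 and 46046742, in locus 13. Fold enrichment was 69.83 and 44.62 in the wild-type line and 74.11 and 57.02 in the 3KR line.

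SUMO-2/3 at PRKCE locus 13 reached 568 and 914 tags in the wild-type line and 280 and 625 in the 3KR line. In these deposited tags, which are not normalized, the lines overlapped, since the higher 3KR library was above the lower wild-type library. Centred on all shared sites, as described below, the wild-type line was higher in all 4 pairs of libraries. The SUMO-2/3 summit placed exactly, in 1 library, was at 46046629 in the 3KR line, 22.0 bp from the GR summit of that line. No control-line GR site overlapped locus 13.

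Loci 12 and 14, on either side, did carry control-line GR sites. PRKCE locus 14, at chr2:46048526-46050261 in the wild-type line, held place 123 among the shared GR sites, with 492 and 912 wild-type GR tags, 745 in the first 3KR library and the same shared peak of 1680 in the second. Its control-line site had 273 tags and a fold enrichment of 24.35, in the top 9.06% of that list. SUMO-2/3 tags were 343 and 530 in the wild-type line and 326 and 556 in the 3KR line, so both lines covered the same range at locus 14. In fold enrichment, however, both wild-type libraries (25.19 and 27.95) were above both 3KR libraries (16.65 and 23.16).

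PRKCE locus 12 was cut differently in the lines. The wild-type GR site, chr2:46041699-46044591, is a single stretch with 391 and 679 tags, whereas the 3KR list has 2 sites there, chr2:46041746-46042998 with 512 and 315 tags and chr2:46043282-46044662 with 204 and 196 tags. Summed over both, the 3KR libraries had 716 and 511 tags, within reach of the wild-type values. The control line had 136 tags there, with a fold enrichment of 8.68, close to the lowest fold in the lists, 8.01. SUMO-2/3 tags were 228 and 789 in the wild-type line and 302 and 1146 in the 3KR line. The second-library SUMO-2/3 peaks were 5721 and 7148 bp wide, so these high tag numbers span more than the locus.

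**Figure D2:**
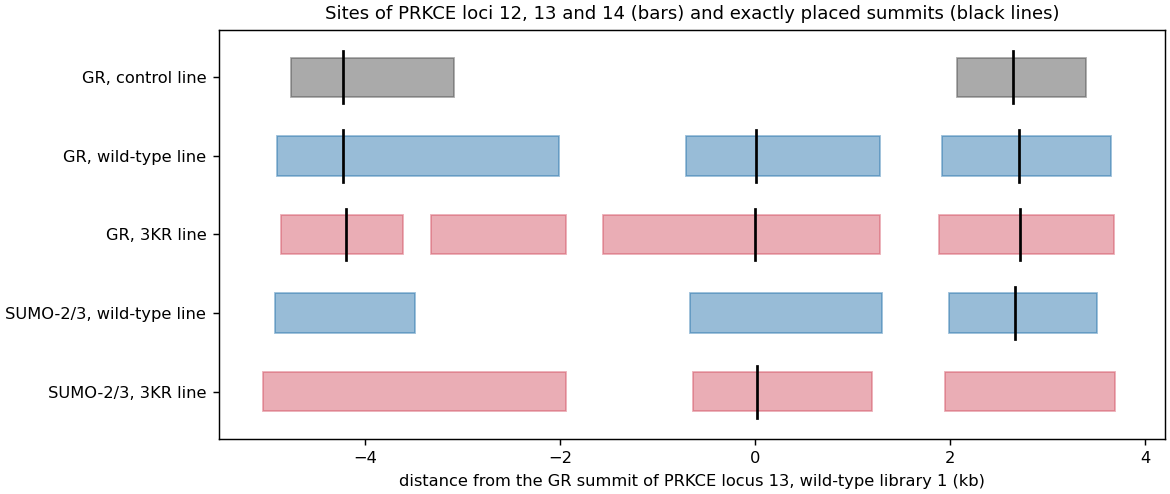
Extent of the sites of PRKCE loci 12, 13 and 14 in the 5 lists (bars, 1 row per list) against distance in kb from the GR summit of locus 13 in the first wild-type library; black lines mark summits whose position is exact. The control line has sites at the flanking loci only, and the 3KR GR list has 2 sites where the wild-type list has 1 at locus 12.

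**Figure D3:**
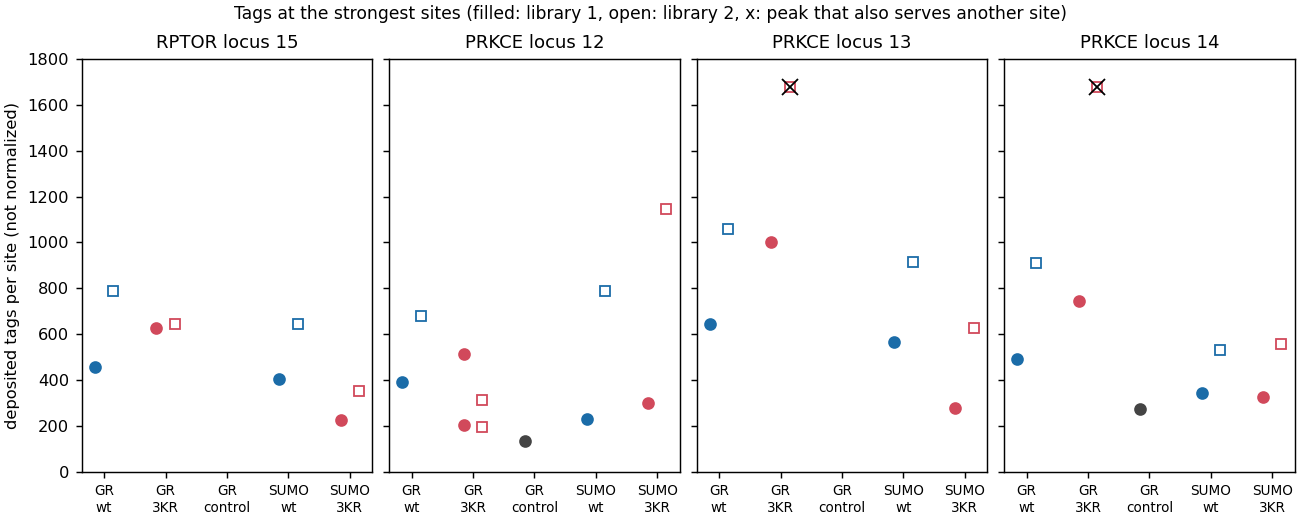
Deposited tags per site (vertical axis, not normalized) in each library at the strongest loci, with filled points for library 1, open squares for library 2 and crosses for a peak that also serves another site. RPTOR locus 15 has higher SUMO-2/3 tags in both wild-type libraries than in both 3KR libraries, and at PRKCE locus 12 the 3KR GR libraries have 2 points each because that list has 2 sites.

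Among the remaining PRKCE GR loci, locus 24 and locus 20 came next by rank. PRKCE locus 24 (place 297), near the far end of the occupied stretch at 374.5 kb, had 208 and 310 GR tags in the wild-type line and 362 and 293 in the 3KR line. Its SUMO-2/3 tags were 133 and 183 in the wild-type line and 64 and 138 in the 3KR line. By fold within each list, its GR sites stood in the top 1.55% to 4.74%. Its SUMO-2/3 site stood at 35.6% and 33.7% from the top of the wild-type list and at 90.6% and 74.0% in the 3KR list. PRKCE locus 20 (place 771) had 349 and 826 wild-type and 685 and 305 3KR GR tags, of which 826 and 685 are single peaks that also cover locus 21. SUMO-2/3 at locus 20 appeared only in the wild-type list, with 143 and 230 tags.

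A further 3 PRKCE loci carried both GR and SUMO-2/3 in both lines. Locus 10 had 168 and 423 wild-type and 211 and 282 3KR GR tags. Locus 18 had 194 and 385 wild-type and 290 and 306 3KR GR tags. Locus 22 had 222 and 577 wild-type and 422 and 354 3KR GR tags. The lines overlapped at all 3. SUMO-2/3 tags there ran from 97 to 449 over the libraries of both lines. PRKCE locus 6 had GR in both lines (101 and 274 wild-type, 161 and 175 3KR tags) and SUMO-2/3 in the wild-type line alone, with 110 and 161 tags.

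In PRKCE, 6 loci had GR in both lines and no SUMO-2/3 site in either, namely loci 2, 3, 4, 16, 21 and 23. PRKCE locus 2, at chr2:45881080-45882074 and 3.5 kb from the window's start, was the one of these with a control-line site. It had 164 and 531 wild-type, 250 and 295 3KR and 133 control-line GR tags, and its exactly placed summits in 1 library of each of the 3 lines lay within 24 bp. Of all wild-type GR sites with a control-line site, 48.3% likewise had no SUMO-2/3 site, as did 61.6% in the 3KR line. PRKCE locus 16 had 157 and 274 wild-type GR tags, both below the 322 and 426 of the 3KR line, as at RPTOR locus 13. PRKCE locus 23 was the weakest shared site, with 59 and 97 wild-type and 82 and 113 3KR tags.

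GR in a single transgenic line was seen at 9 PRKCE loci. The 3KR line alone had loci 1 (150 and 285 tags), 5 (85 and 79), 9 (196 and 122), 11 (127 and 136), 15 (121 and 187), 17 (91 and 108) and 25 (86 and 81). The wild-type line alone had loci 8 (108 and 185 tags) and 19 (151 and 296 tags). Locus 1, which had the most tags of the 3KR group in a single library, straddles the window's start. As in RPTOR, none carried SUMO-2/3, which with so few sites is near the shares of 5.11% and 15.3% over the lists.

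Over both windows, 22 of the 25 wild-type GR sites (88.0%, exact 95% binomial interval 68.8 to 97.5) overlapped a 3KR GR site, against 88.9% of the whole list. In the other direction, 23 of 34 3KR GR sites (67.6%, 49.5 to 82.6) overlapped a wild-type site, against 53.0%, a value inside the interval. The interval covers counting error only, and neighbouring sites are not independent. Both counts, 22 of 25 and 23 of 34, include the strongest GR site of each window, which was chosen among sites shared by both lines. The share was 88.0% against 88.9% in one direction and 67.6% against 53.0% in the other. Intervals this wide cannot show whether sharing in the 2 genes was near the background, so these shares are a description.

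SUMO-2/3 lay at 15 of the 25 wild-type GR sites (60.0%, 38.7 to 78.9), against 37.4% of the list, with 6 of 8 in RPTOR and 9 of 17 in PRKCE. In the 3KR line it lay at 13 of 34 GR sites (38.2%, 22.2 to 56.4), against 15.6%, with 5 of 11 in RPTOR and 8 of 23 in PRKCE. Without RPTOR locus 15 and PRKCE locus 13, which chose the windows, the counts were 13 of 23 (56.5%, 34.5 to 76.8) and 11 of 32 (34.4%, 18.6 to 53.2). These intervals cover counting error only, neighbouring sites are not independent, and the excess over the lists was not tested. Both 3KR GR sites of PRKCE locus 12, for example, overlap the same SUMO-2/3 site. Over the lists, the share of GR sites with SUMO-2/3 was higher in each stronger quintile of GR fold, and 9 of the 25 wild-type members were in the strongest of 5 quintiles by fold. In that quintile 7 of 9 members carried SUMO-2/3, against 86.1% of the list's sites. In the next it was 6 of 6 against 48.2%, and in the 3 weaker quintiles it was 1 of 4, 0 of 3 and 1 of 3 against 28.4%, 15.8% and 8.35%. In the 3KR line the counts from the strongest quintile down were 8 of 11, 3 of 9, 1 of 4, 1 of 6 and 0 of 4, against 47.1%, 14.4%, 7.9%, 5.49% and 3.08%. The counts of the strongest quintile include RPTOR locus 15 and PRKCE locus 13, which carried SUMO-2/3 in both lines. The windows were chosen by the same measure, GR fold, so the quintile counts are a description.

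Seen from the SUMO-2/3 sites, more of those in PRKCE than in RPTOR lay at GR. In the wild-type line, 6 of 10 RPTOR and 9 of 10 PRKCE SUMO-2/3 sites overlapped a GR site, against 34.3% of the list. In the 3KR line the counts were 5 of 10 and 7 of 7, against 37.6%. With so few sites, the exact intervals of the 2 genes overlap in both lines (26.2 to 87.8% and 55.5 to 99.7% in the wild-type line, 18.7 to 81.3% and 59.0 to 100.0% in the 3KR line). Between the lines, 14 of 20 wild-type SUMO-2/3 sites overlapped a 3KR SUMO-2/3 site, against 47.7%, and 14 of 17 3KR sites overlapped a wild-type site, against 74.7%.

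Summits of GR and SUMO-2/3 in the same line could both be placed exactly at 6 wild-type sites and 1 3KR site. In the wild-type line they were within 50 bp at 5 of the 6 (RPTOR loci 7, 13 and 17 and PRKCE loci 6 and 14), against 83.3% of 1243 such pairs over the list. The 3KR pair, at PRKCE locus 13, is the one given above, and 74.6% of 903 3KR pairs over the list were within 50 bp. The exception was RPTOR locus 9, where the wild-type GR and SUMO-2/3 summits were 1065 bp apart. Distances of 1000 bp or more were seen at 3.78% of wild-type and 3.65% of 3KR pairs in the lists. Over both lines, the summits placed at RPTOR locus 9 were at 78645135 to 78645153 for GR and at 78646193 to 78646200 for SUMO-2/3. GR at RPTOR locus 9 was weak, with folds of 8.88 and 8.54 in the wild-type line and 15.2 and 9.51 in the 3KR line, so the overlap of its sites joins a GR peak and a SUMO-2/3 peak that are centred apart.

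For each shared site, log2 of wild-type over 3KR tags was taken in all 4 pairings of a wild-type with a 3KR library, set to a median of 0 over all shared sites in each pairing, and averaged. At the 7 shared RPTOR GR sites the median was 0.09 (range -0.67 to 0.27), and at the 15 shared PRKCE GR sites it was 0.24 (-0.49 to 1.72). Of these 22 sites, 2 were higher in the wild-type line in all 4 pairs, 2 were lower in all 4, and 18 were mixed, while 27.6% of all shared GR sites were higher in all 4 pairs and 27.6% lower. In deposited tags, both wild-type libraries were above both 3KR libraries at 1 of the 22 sites (background 4.08%) and below them at 2 (32.9%). The high value of 1.72 is PRKCE locus 12, which was compared with the longer of its 2 3KR sites. With both 3KR sites summed it was 0.12, and of the 22 sites 1 was then higher in all 4 pairs and 0 had deposited tags above those of both 3KR libraries.

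RPTOR locus 15 had a centred GR log2 ratio of 0.27 (0.12 to 0.42 over the pairs), and PRKCE locus 13 had -0.30 (-0.84 to 0.24), the latter with the peak shared with locus 14. Chromosomes differed in the same measure: the median over shared GR sites was 0.27 on chromosome 17 and -0.32 on chromosome 2. Centring on the chromosome moved the genes in opposite directions. The RPTOR median became -0.17, with 1 of 7 sites above 0, and the PRKCE median became 0.55, with 13 of 15 sites above 0. The GR log2 ratio was then 0.01 at both RPTOR locus 15 and PRKCE locus 13, and 0.78 to 0.89 at PRKCE loci 2, 3, 10, 20 and 21. Of these, loci 3, 20 and 21 include peaks that also serve a neighbouring site. The 466 tags of the second wild-type library at locus 3 are listed at locus 4 as well. With no centring the medians were -0.26 and -0.11, so the direction of both depends on the centring. The part that the chromosome-wide difference has in the values of single sites was not tested.

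For SUMO-2/3, the median log2 ratio was 0.08 (-0.29 to 0.57) at the 7 shared RPTOR sites and -0.21 (-0.85 to 0.41) at the 7 shared PRKCE sites. RPTOR loci 15 and 17 and PRKCE loci 13 and 24 were higher in the wild-type line in all 4 pairs (background 28.0%), and RPTOR locus 9 and PRKCE loci 14 and 22 were lower (27.7%). In deposited tags, 0 of the 14 sites had both wild-type libraries below both 3KR libraries, against 1.28% of the list. At RPTOR locus 15 the SUMO-2/3 log2 ratio was 0.48 (0.32 to 0.64), and at PRKCE locus 13 it was 0.41 (0.30 to 0.51). Centred on the chromosome they were 0.27 and 0.68, by tags per base 0.25 and 0.09, and by fold enrichment 0.74 and 0.22. PRKCE locus 14, the immediate neighbour, had -0.37 (-0.50 to -0.26) by tags, but 0.27 when fold enrichment replaced tags and 0.35 by tags per base of each library's own peak, so its direction depends on the measure.

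**Figure D4:**
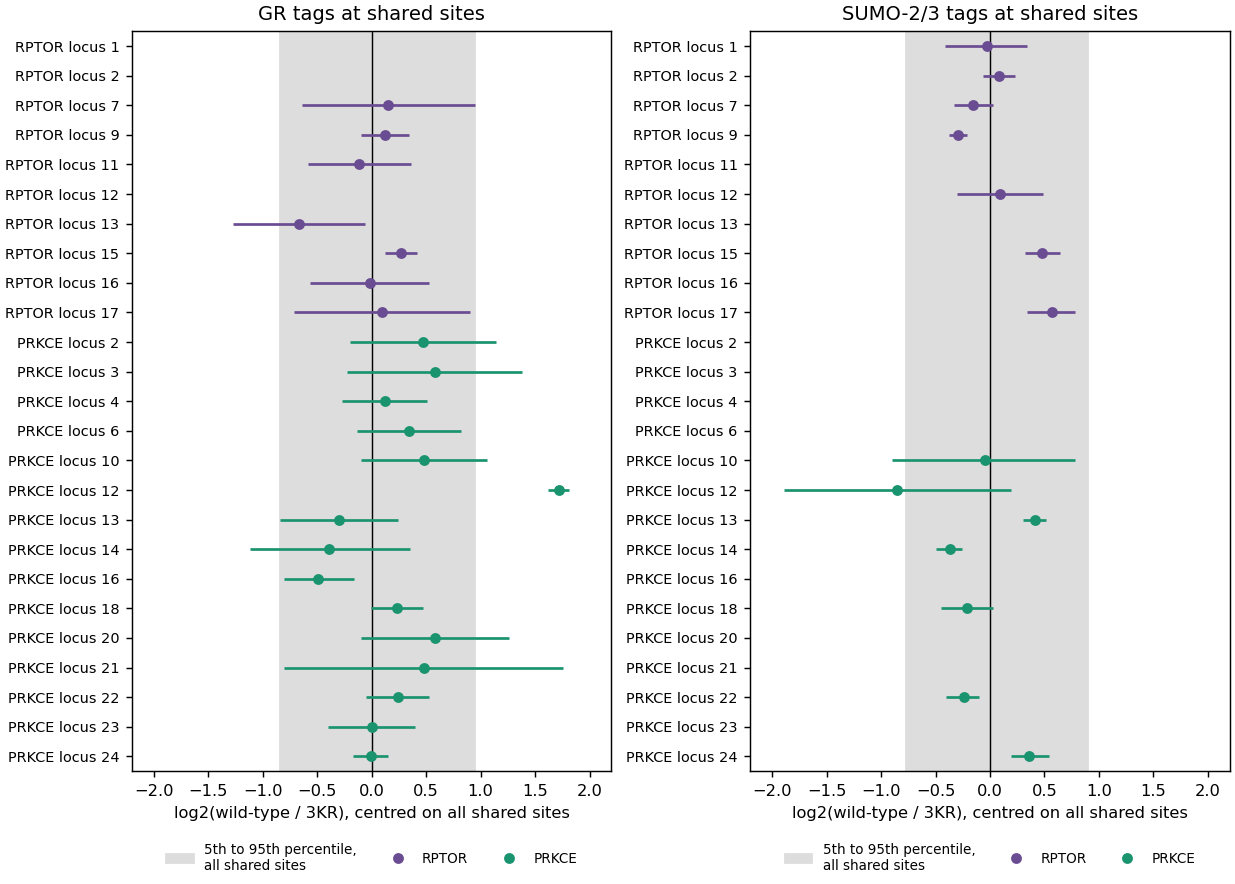
Centred log2 ratio of wild-type over 3KR tags at each shared site (points, mean of 4 pairs of libraries; lines, lowest to highest pair) for GR and SUMO-2/3; the grey band spans the 5th to 95th percentile of all shared sites, -0.84 to 0.95 for GR and -0.77 to 0.90 for SUMO-2/3. Most sites lie inside the band, PRKCE locus 12 lies above it for GR (1.72) and below it for SUMO-2/3 (-0.85), and RPTOR locus 15 and PRKCE locus 13 lie above 0 for SUMO-2/3. The GR value of locus 12 leaves out a 3KR site and is 0.12 with both 3KR sites summed. Its SUMO-2/3 value is -0.26 by fold enrichment and -0.15 by tags per base.

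The control line listed 3 of its 1016 GR sites in the windows, all in PRKCE, at loci 2, 12 and 14. All 3 overlapped GR sites of the wild-type line (background 82.0%) and of the 3KR line (87.7%). From the other side, 3 of 25 wild-type GR sites overlapped a control-line site, against 7.49% of the list, and 4 of 34 3KR GR sites did, against 4.79%. The strongest sites of both windows were among the GR sites with no control-line site, as were 8 of the 10 strongest shared GR sites.

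By a rule that took the smallest mean absolute log2 difference in tags over the 8 duplicate libraries among 1993 sites with both antibodies in both lines, the sites most like RPTOR locus 15 were chr7:95225856-95227182 (0.11), chr15:73157247-73159118 (0.12) and chr3:11493603-11495611 (0.14). Those most like PRKCE locus 13 were chr5:31645454-31647926 (0.20), chr2:20738691-20740412 (0.22) and chr3:14419538-14421637 (0.24), and the last of these shares its place 4 by GR rank. The closest match of RPTOR locus 15, on chromosome 7, had 462 and 789 wild-type and 743 and 612 3KR GR tags, but held place 120 by fold. All of the 10 strongest shared GR sites carried SUMO-2/3 in both lines, so the RPTOR and PRKCE sites had the same pattern of SUMO-2/3 presence as the rest of that group.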

How the data were processed

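The submitters' processing notes name CASAVA, Bowtie 0.12.9 and the build hg19. How peaks were called is not given in the sources used here. Of the 11 samples, 9 had a list. Per the file headers, each list gives a peak's position and summit, its tags, a p column, a fold enrichment and an FDR. The tag counts the authors deposited are not normalized and belong to each library's own peak. The fold enrichment the authors deposited is a ratio to background, and the deposited FDR is in percent. The p column the authors deposited is of uncertain scale, was taken as a score and was not used. The lowest fold was 8.01, the lowest tag count 51 and the highest FDR 9.99 percent.

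Both libraries of a duplicate group have identical site positions, and a site is no wider than either library's peak, so 1 peak may serve 2 neighbouring sites. Samples were grouped by title. Sites overlapped when they shared at least 1 bp. A wild-type site was compared with the 3KR site of longest overlap. Summits were used where a library's own peak equals the site or the joint span of the sites it serves; pairs of GR and SUMO-2/3 summits used the first kind only. Shares have exact (Clopper-Pearson) 95% binomial intervals. Overlap and ratio code was tested on simulated sites. Members, windows and named loci were chosen with earlier results of these data known. The named sites were the strongest shared GR site of each window, all control-line sites and all loci by class. Python 3.11.15, pandas 2.3.3, numpy 2.4.6, scipy 1.17.1 and matplotlib 3.10.9 were used. Alternatives were a stricter limit, other overlap rules, other measures and centrings, and leaving out each library.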

Additional observations from a re-analysis of the deposited data

How the results depend on the processing

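With a stricter limit (fold of at least 16 and at least 100 tags in each library), RPTOR kept 3 wild-type and 6 3KR GR sites, 3 wild-type sites shared with the 3KR line, and 1 GR site with SUMO-2/3 in each line. PRKCE kept 10 wild-type, 14 3KR and 1 control-line GR sites, 9 shared wild-type sites, 1 site per transgenic line with a control-line site, and 2 per line with SUMO-2/3. When centres had to lie within 200 bp, GR sites with SUMO-2/3 numbered 3 in each line in RPTOR and 5 in the 3KR line in PRKCE, 2 3KR PRKCE sites met a control-line site, and 10 of the 15 shared wild-type PRKCE sites were left. The median GR log2 ratio of PRKCE was 0.55 centred on the chromosome and -0.11 without centring. Leaving out each library in turn gave 0.03 to 0.52 there, the highest without the first wild-type library, and -0.30 to 0.33 for RPTOR. The median SUMO-2/3 log2 ratio of RPTOR was -0.13 centred on the chromosome and 0.45 without centring, and that of PRKCE was 0.09 by tags per base, 0.06 and 0.17. Ranking by tags gave mean ranks of 567 and 114. The cause was not tested. Smaller moves also turned signs: the RPTOR GR median of 0.09 was 0.00 by fold, -0.11 by tags per base, -0.17 on the chromosome, -0.05 within 5 Mb and -0.26 without centring. The PRKCE GR median of 0.24 was 0.14 by fold, 0.04 by tags per base and 0.37 within 5 Mb. With libraries paired by number (replicate block), the median log2 ratios were 0.09 and 0.24 for GR and 0.09 and -0.20 for SUMO-2/3 in RPTOR and PRKCE. Summing 3KR sites, centring within 5 Mb and leaving out the strongest sites were chosen after seeing the data. Sites below the lists' limits cannot be seen, so an unlisted site is not an absent one.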
